A study of Mus musculus with 4 samples.

Results

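The flanks of the muscle belly are the stretches of tissue on either side of the middle of a serially sectioned muscle, inside the regions next to its ends. They were compared in 4 tibialis anterior muscles, the muscle at the front of the shin, of the mouse. Each muscle had been cut into consecutive cryosections, total RNA had been extracted from each section, and each section had received its own barcode, so that a transcript could be traced to its place along the muscle (TOMO-seq with CEL-Seq2 chemistry). A section was kept where its column of counts equalled a column of the authors' filtered table times a single factor, and its position was its barcode number scaled from 0 at the first kept section to 1 at the last. The low-barcode flank held the sections at position 0.2 to under 0.4, and the high-barcode flank those at 0.6 to under 0.8. Together the flanks had 66 of the 171 kept sections, with 7, 9, 8 and 8 sections in the low-barcode flanks of muscles 1 to 4 and 8, 9, 9 and 8 in their high-barcode flanks. The labels give no strain, age, sex, genotype or treatment, and do not say whether the muscles came from separate animals. They do not say which end of the barcode order is the knee and which the ankle. Nor do they say that the order ran in the same direction in all 4 muscles, which the comparison takes as given. As separate animals are not stated, the p-values of the flank comparison concern these 4 muscles only. The test took each gene's spread between muscles partly from the gene itself and partly from all genes tested. The shared part carried 21.4 prior degrees of freedom, so a gene's own spread over the 4 muscles had limited weight.

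The tibialis anterior of the mouse consists mainly of fast fibres, which contract rapidly and draw much of their ATP from glycogen and phosphocreatine, together with more oxidative fibres that burn fatty acids in their mitochondria. Arteries and nerves enter a muscle at particular places and branch from there, lymphatic vessels accompany them, and a tendon of collagen and small proteoglycans carries the force of the fibres to bone. A section across the belly therefore holds fibre cytoplasm, blood, vessel wall, nerve and connective tissue. In such bulk sections, fewer cells of a type and less RNA per cell cannot be told apart.

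The sequences shown first belong to the genes with the clearest difference between the flanks, those of adult haemoglobin, and to Actc1, which had the largest positive difference outside the haemoglobin genes among the 24 genes chosen by size and level. They are the 200 bases before the annotated start of each gene in RefSeq (GRCm38.p6), 5′ to 3′ on the strand of the gene. The gene coordinates given further below are from GENCODE M21, where the starts differ. By those coordinates the Actc1 window lies inside the gene, and each haemoglobin window overlaps the start of its gene. For Hba-a1 the window is chr11:32283472-32283671 (plus strand), for Hbb-bs chr7:103827929-103828128 (minus strand), for Hbb-bt chr7:103813924-103814123 (minus strand) and for Actc1 chr2:114052876-114053075 (minus strand). Capitals mark CCAAT and GATAAG in the haemoglobin genes and the CArG box in Actc1, each searched on both strands (ATTGG is CCAAT on the opposite strand).
Hba-a1: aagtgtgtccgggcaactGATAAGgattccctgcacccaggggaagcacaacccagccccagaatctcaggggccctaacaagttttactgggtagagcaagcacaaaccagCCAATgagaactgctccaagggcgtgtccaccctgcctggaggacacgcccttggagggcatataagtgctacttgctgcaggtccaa
Hbb-bs: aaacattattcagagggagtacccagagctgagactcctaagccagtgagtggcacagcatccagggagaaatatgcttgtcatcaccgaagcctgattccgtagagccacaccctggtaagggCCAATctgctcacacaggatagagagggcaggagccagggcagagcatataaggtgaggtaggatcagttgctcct
Hbb-bt: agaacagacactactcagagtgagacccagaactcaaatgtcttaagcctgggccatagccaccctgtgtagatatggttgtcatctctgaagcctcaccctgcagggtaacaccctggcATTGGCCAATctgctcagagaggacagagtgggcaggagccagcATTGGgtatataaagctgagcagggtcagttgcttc
Actc1: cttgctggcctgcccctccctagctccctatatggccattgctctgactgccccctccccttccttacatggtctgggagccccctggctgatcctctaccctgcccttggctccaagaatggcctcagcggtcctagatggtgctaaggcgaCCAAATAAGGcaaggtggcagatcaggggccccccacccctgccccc
CCAAT was present in all 4 haemoglobin windows and in 29.3% of the 32851 promoter windows of this length, GATAAG in those of Hba-a1 and Hba-a2 and in 5.13% of all, and the CArG box in that of Actc1 and in 1.18% of all. Of the aligned 197 bases of the Hba-a1 and Hba-a2 windows, offset by 3 bases, 197 were identical. These matches describe the letters and show no binding.

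The 8 sums of flank sections held 3232665 to 6604613 transcripts, and single flank sections 111794 to 1159697, as estimated by the authors from molecular identifiers. Mitochondrially encoded genes took 62.2, 60.2, 62.7 and 71.8% of the transcripts in the low-barcode flanks of muscles 1 to 4, against 58, 59.1, 63.1 and 67.2% in their high-barcode flanks. Muscles 1 and 2 carried one set of barcodes and muscles 3 and 4 another, which is the batch that the files show, and 4 barcodes were in the high-barcode flank of muscle 1 and in the low-barcode flank of muscle 2. Ckm, the muscle creatine kinase, averaged 8024 ± 1882 CPM in low-barcode flanks and 7835 ± 1496 CPM in high-barcode flanks (SD, n = 4 muscles each). This level marks the tissue as muscle but does not show which muscle it is. CPM stands for counts scaled to a common total, here after TMM scaling. The 5 skin markers together had 0.692 to 2.02 CPM in low-barcode flanks and 0.435 to 1.09 CPM in high-barcode flanks and the 6 cartilage and bone markers 2.1 to 5.08 CPM in low-barcode flanks and 1.9 to 4.63 CPM in high-barcode flanks.

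Between the flanks 51 of 7963 genes differed (edgeR quasi-likelihood test with muscle as a block, Benjamini-Hochberg adjusted p below 0.05), which is 0.64% of the genes tested. Of these, 31 were higher in the low-barcode flank (0.389%) and 20 lower (0.251%). Haemoglobin, smooth muscle and myelin genes and several genes of fat and creatine handling were among the higher ones, and tendon proteoglycans and Car3, a cytosolic carbonic anhydrase, among the lower ones. All differences below are log2 values of the low-barcode flank minus the high-barcode flank, and their median over all genes was -0.01. In 4 of 4 muscles the sign was the same for 50 of the 51 genes, against 18.3% of all genes tested (8.78% higher and 9.57% lower in all 4). The exception was Tnnt2. The 4 sums of one flank all lay on one side of the 4 sums of the other for 16 of the 51 genes, against 1.36% of all. The test favours genes whose 4 differences agree, so these shares are no support apart from the call. An unadjusted p below 0.05 was reached by 772 genes (9.69%). The count of calls was 34 without muscle 1, 34 without muscle 2, 24 without muscle 3 and 82 without muscle 4, and DESeq2 called 18 genes, 13 higher and 5 lower. These 18, all among the 51, were the 4 haemoglobin genes, Ccl21a, Sfrp5, Gm15543, Acta2, H19, Gm11407, Lpl, mt-Rnr1, Ckmt2, Car3, Prg4, Fmod, Tigd4 and Chad. The other 33 were not called by DESeq2. Within the barcode sets, muscles 1 and 2 alone gave 42 calls and muscles 3 and 4 alone 79, and 18 of the 51 genes were called in both, among them the haemoglobin genes, Actc1, H19, Lpl, Ckmt2, Car3, Prg4, Fmod and Chad. The 51 genes were chosen on these same 4 muscles, so the 18 are no independent check.

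**Figure D1:**
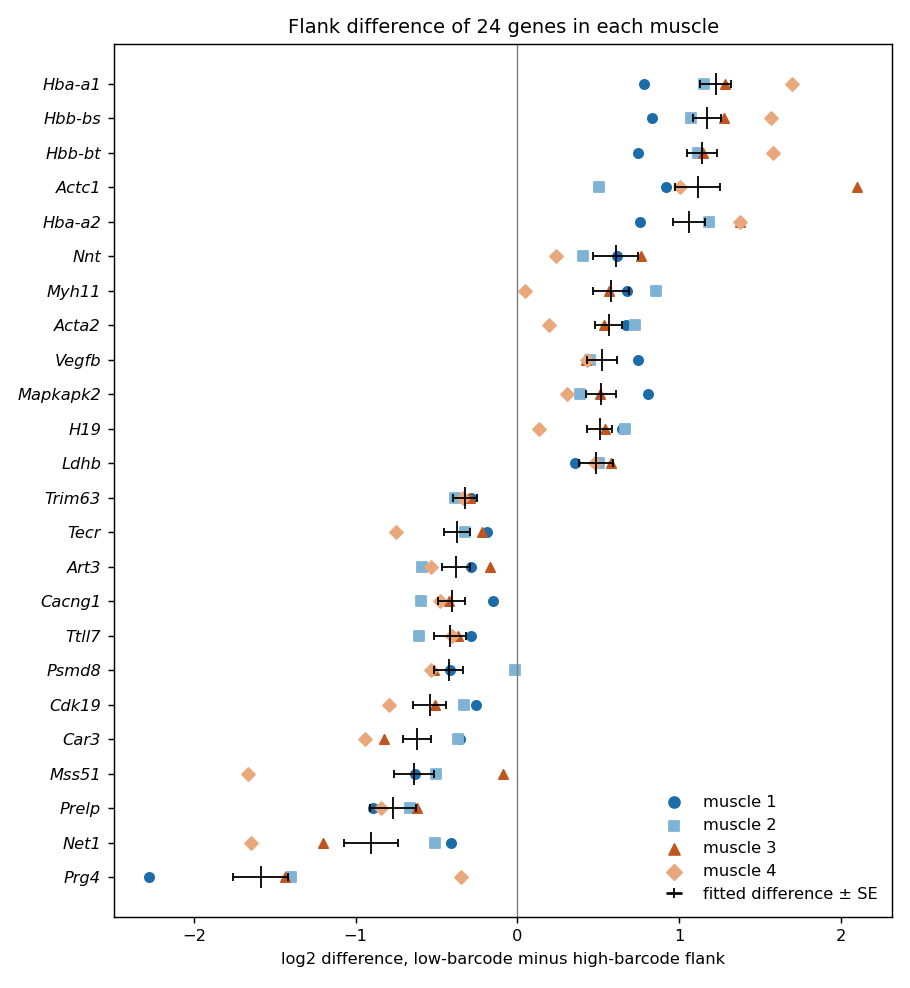
Log2 difference between the low-barcode and the high-barcode flank for the 24 genes named by rule, with one symbol per muscle and the fitted difference ± SE in black. The haemoglobin genes lie between 0.75 and 1.70 in all 4 muscles, and Prg4 between -2.28 and -0.35.

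Transcripts of haemoglobin, the oxygen carrier of red blood cells, were higher in the low-barcode flank, by 1.06 to 1.23 on the log2 scale for the 4 genes. Of 5 erythrocyte markers, 4 rose, and Alas2, the first enzyme of haem synthesis in red cells, had a log2 difference of 0.81 ± 0.26 (SE, edgeR adjusted p = 0.229). Hba-a1, an alpha chain gene (chr11:32283511-32284465), had 1689.7, 1687, 1156 and 2389 CPM in the low-barcode flanks of muscles 1 to 4, against 981, 759, 474 and 735 CPM in their high-barcode flanks. The groups did not overlap, and muscle 4 had the widest gap. Its log2 difference was 1.23 ± 0.10 (SE, edgeR adjusted p = 8.79e-09). Hbb-bs, a beta chain gene (chr7:103826534-103828096), had 673, 670.1, 268 and 404 CPM in the low-barcode flanks, against 378, 318, 110.2 and 136 CPM in the high-barcode flanks. The muscles differed in level, so the groups overlapped, but each muscle was higher in its low-barcode flank. Its log2 difference was 1.17 ± 0.09 (SE, edgeR adjusted p = 6.52e-09). Hbb-bt, the second beta chain gene (chr7:103812524-103813996), had 179, 203, 113 and 251 CPM in low-barcode flanks, against 107, 93.2, 50.6 and 83.7 CPM in high-barcode flanks, with a log2 difference of 1.14 ± 0.09 (SE, edgeR adjusted p = 1.77e-08). Hba-a2, the second alpha chain gene (chr11:32296489-32297298), stood at 1169, 1182, 23 and 27.7 CPM in the low-barcode flanks and 690.1, 519.8, 8.55 and 10.4 CPM in the high-barcode flanks. Its level split by barcode set, high in muscles 1 and 2 and low in muscles 3 and 4, while its log2 difference of 1.06 ± 0.10 (SE, edgeR adjusted p = 1.18e-07) had one sign in all 4 muscles. The alpha pair shares nearly identical sequence, as does the beta pair, so how reads were divided within each pair is uncertain. Section by section, 32 of 32 low-barcode flank sections were above the median of their own muscle's high-barcode flank for Hba-a1, Hbb-bs and Hbb-bt, and 31 of 32 for Hba-a2. All 8 of the low-barcode flank sections of muscle 3 and all 8 of muscle 4 were above every high-barcode flank section of their muscle for Hbb-bs, as were 9 of 9 in muscle 2 and 4 of 7 in muscle 1.

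**Figure D2:**
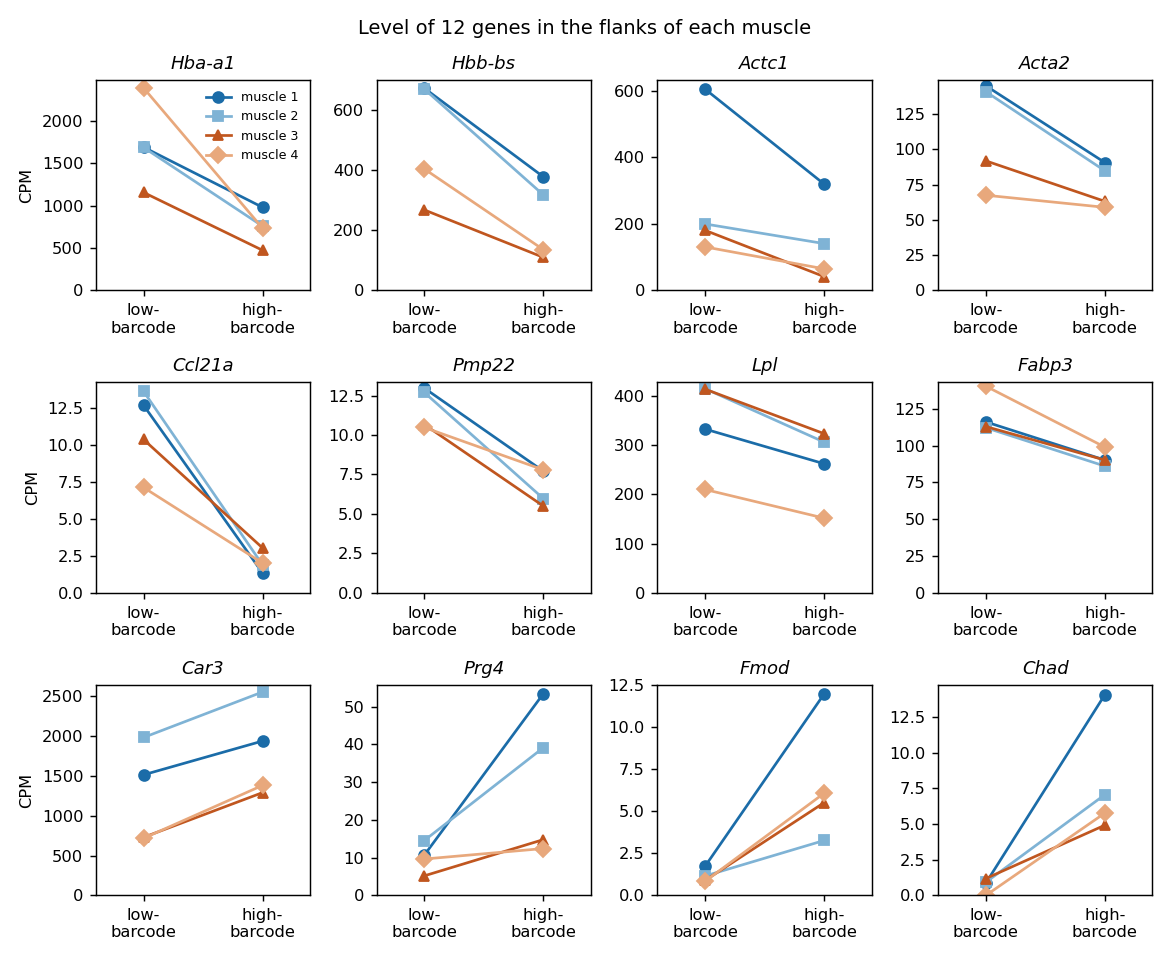
Level in CPM (TMM-scaled, from 0) of 12 genes in the low-barcode flank (left) and the high-barcode flank (right), with one line per muscle. Hba-a1, Hbb-bs, Actc1, Acta2, Ccl21a, Pmp22, Lpl and Fabp3 are higher on the left in all 4 muscles, and Car3, Prg4, Fmod and Chad are lower on the left in all 4.

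Of the genes of the vessel wall, Acta2 and Myh11 of smooth muscle rose in the low-barcode flank, and no endothelial marker was called by edgeR. Acta2, the actin of smooth muscle, had 145, 141, 91.8 and 67.5 CPM in the low-barcode flanks of muscles 1 to 4, against 90.6, 84.8, 63.2 and 58.9 CPM in their high-barcode flanks. Muscle 4 had the smallest gap, and the groups overlapped. For Acta2 the log2 difference was 0.57 ± 0.08 (SE, edgeR adjusted p = 0.000312). Myh11, the smooth muscle myosin heavy chain, had 48.1, 39.2, 39.7 and 28.1 CPM in low-barcode flanks, against 29.9, 21.5, 26.7 and 27.1 CPM in high-barcode flanks, nearly equal in muscle 4, with a log2 difference of 0.58 ± 0.11 (SE, edgeR adjusted p = 0.00622). Of 9 smooth muscle and pericyte markers 7 could be tested, these 2 rose, and the median was 0.33. The 9 markers together had 281 to 308 CPM in low-barcode flanks and 199 to 235 CPM in high-barcode flanks. Tagln, an actin-binding protein of smooth muscle, had a log2 difference of 0.26 ± 0.09 (adjusted p = 0.284), and the pericyte gene Rgs5 a log2 difference of 0.10 ± 0.10 (adjusted p = 0.801). Of 11 endothelial markers 10 were tested and none was called by edgeR, with a median of 0.15 and 8 positive differences. Kdr, the main VEGF receptor, had a log2 difference of 0.48 ± 0.15 (adjusted p = 0.217). Vegfb, a growth factor of the VEGF family that binds Flt1, rose: it had 65.7, 60, 46.8 and 41.5 CPM in the low-barcode flanks and 38.9, 43.7, 34.8 and 30.6 CPM in the high-barcode flanks, higher in each muscle. For Vegfb the log2 difference was 0.52 ± 0.09 (SE, edgeR adjusted p = 0.00271). Myh11 was not called by edgeR without muscle 1, 2 or 3 (adjusted p = 0.0868, 0.0764 and 0.158). Vegfb was not called without muscle 1 (adjusted p = 0.064). Acta2 was not called by edgeR with flanks narrowed to positions 0.25 to 0.40 and 0.60 to 0.75 (log2 difference 0.32, adjusted p = 0.2). Nor was it called in muscles 3 and 4 alone (edgeR adjusted p = 0.0668).

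Ccl21a, a chemokine released by lymphatic endothelium, had the largest positive difference of all called genes, at a low level. It had 12.7, 13.6, 10.4 and 7.12 CPM in the low-barcode flanks of muscles 1 to 4, against 1.35, 1.9, 3.04 and 2.02 CPM in their high-barcode flanks. The groups did not overlap, and the difference was 2.32 ± 0.23 (SE, edgeR adjusted p = 7.67e-07). The gene has near-identical copies in the mouse genome, so its counts are uncertain as to the copy. The other 5 lymphatic markers were too low to test. Together the 6 markers had 12.2 to 23.8 CPM in low-barcode flanks and 5.98 to 7.8 CPM in high-barcode flanks. Summed over the 4 muscles, Prox1, the defining transcription factor of lymphatic endothelium, had 18 transcripts in low-barcode flanks and 20 in high-barcode flanks. Lyve1, a hyaluronan receptor, had 58 in low-barcode flanks and 39 in high-barcode flanks, and Flt4, the lymphatic VEGF receptor, had 26 in low-barcode flanks and 11 in high-barcode flanks. Pdpn had 15 in low-barcode flanks and 19 in high-barcode flanks, and Mmrn1 had 2 in low-barcode flanks and 3 in high-barcode flanks.

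Myelin genes of Schwann cells, the cells that wrap the axons of peripheral nerve, were higher in the low-barcode flank. Of 8 Schwann cell markers 4 could be tested and 3 rose, of which Mbp and Pmp22 are described. Mbp, which compacts the myelin sheath, had 9.8, 7.16, 6.96 and 3.77 CPM in the low-barcode flanks of muscles 1 to 4, against 3.86, 1.63, 2.32 and 2.31 CPM in their high-barcode flanks. Each muscle was higher in the low-barcode flank, although the groups just overlapped. Its log2 difference was 1.48 ± 0.23 (SE, edgeR adjusted p = 0.00058). Mbp was not called by DESeq2 (adjusted p = 0.205) or by limma with equal section weights (adjusted p = 0.0728). Pmp22, another compact myelin protein, had 13, 12.7, 10.7 and 10.5 CPM in low-barcode flanks, against 7.71, 5.98, 5.5 and 7.8 CPM in high-barcode flanks, without overlap. For Pmp22 the log2 difference was 0.83 ± 0.17 (SE, edgeR adjusted p = 0.0099). Sox10, the transcription factor of the lineage, had a log2 difference of 1.01 ± 0.26 (SE, edgeR adjusted p = 0.0807). All 8 markers together had 30.6 to 43.8 CPM in low-barcode flanks and 14.4 to 23.1 CPM in high-barcode flanks. Of 14 neuromuscular junction genes 9 were tested and none was called by edgeR, with a median of 0.26. Chrne, the epsilon subunit of the adult acetylcholine receptor, had a log2 difference of 0.46 ± 0.18 (adjusted p = 0.364). Pmp22 was not called by edgeR without muscle 1, 2 or 3 (adjusted p = 0.0512, 0.0821 and 0.219).

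Tendon matrix genes were lower in the low-barcode flank. Of 10 tendon genes 4 could be tested, 3 fell, and the median was -2.03. Prg4, the lubricant proteoglycan of gliding surfaces (chr1:150449412-150466165), had 10.7, 14.5, 5.18 and 9.64 CPM in the low-barcode flanks of muscles 1 to 4, against 53.4, 39.1, 14.8 and 12.4 CPM in their high-barcode flanks. It was lower in each muscle, least so in muscle 4, and the groups overlapped. For Prg4 the log2 difference was -1.59 ± 0.17 (SE, edgeR adjusted p = 1.93e-06). Chad, chondroadherin, a leucine-rich protein that binds collagen and chondrocytes (chr11:94565047-94569127), had 0.865, 0.923, 1.18 and 0 CPM in low-barcode flanks, against 14.1, 7.06, 4.92 and 5.78 CPM in high-barcode flanks. The groups did not overlap, and the difference was -3.05 ± 0.33 (SE, edgeR adjusted p = 1.91e-06). Fmod, fibromodulin, which binds collagen fibrils, had 1.73, 1.15, 0.888 and 0.838 CPM in low-barcode flanks, against 12, 3.26, 5.5 and 6.06 CPM in high-barcode flanks, without overlap. For Fmod the log2 difference was -2.48 ± 0.29 (SE, edgeR adjusted p = 8.3e-06). Thbs4, a thrombospondin of tendon and its junction, was lower in each muscle but did not pass, with a log2 difference of -0.33 ± 0.10 (SE, edgeR adjusted p = 0.147). Prelp, a proteoglycan that anchors basement membranes, had 11.2, 8.77, 8.14 and 7.54 CPM in the low-barcode flanks and 21.2, 14.1, 12.7 and 13.9 CPM in the high-barcode flanks, without overlap, and fell by the test, with a log2 difference of -0.77 ± 0.14 (SE, edgeR adjusted p = 0.00534). Single sections shaped some of these values: 1 of the 8 high-barcode flank sections of muscle 1 held 36.4% of the summed per-section CPM of Prg4 there. For Chad, 0 of 32 low-barcode flank sections were above their muscle's high-barcode flank median. Fibrillar and basement membrane genes gave no call by edgeR: of 16 extracellular matrix genes 15 were tested, with a median of 0.09, and Col1a1, the main collagen chain, had a log2 difference of -0.34 ± 0.17 (adjusted p = 0.519). Markers of fibro-adipogenic progenitors, the main connective tissue cells of muscle, had a median of 0.09 over 9 tested of 10, none called by edgeR, and together 408 to 521 CPM in low-barcode flanks and 389 to 541 CPM in high-barcode flanks. Of 11 myotendinous junction genes 9 were tested, none was called by edgeR, 1 was positive, and the median was -0.16. Prelp was not called by edgeR without muscle 1 (adjusted p = 0.0868).

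Among genes of the fibre itself, Actc1, the cardiac actin that immature and regenerating skeletal fibres also make, rose in the low-barcode flank (chr2:114047282-114053548). It had 604, 199.7, 181 and 131 CPM in the low-barcode flanks of muscles 1 to 4, against 319, 141, 41.7 and 65 CPM in their high-barcode flanks. Muscle 1 was high in both flanks, so the groups overlapped, but 32 of 32 low-barcode flank sections exceeded their muscle's high-barcode flank median. For Actc1 the log2 difference was 1.11 ± 0.14 (SE, edgeR adjusted p = 2.67e-05). DESeq2 did not call Actc1 (adjusted p = 0.286). Of the 11 genes listed for immature or denervated fibres 4 were tested and 1, Actc1, rose. Ncam1, an adhesion molecule of denervated fibres, had a log2 difference of 0.72 ± 0.29 (adjusted p = 0.365). Tnnt2, the cardiac troponin T, had 4.9, 2.77, 6.07 and 3.35 CPM in low-barcode flanks, against 1.35, 1.09, 1.3 and 3.46 CPM in high-barcode flanks. It was called, with a log2 difference of 1.47 ± 0.32 (SE, edgeR adjusted p = 0.0222), but was level in muscle 4. H19, an imprinted noncoding RNA (chr7:142575529-142578143), had 1848, 2464, 385 and 401 CPM in the low-barcode flanks and 1181, 1556, 264 and 366 CPM in the high-barcode flanks. Its level was high in muscles 1 and 2 and lower in muscles 3 and 4, and each muscle was higher in the low-barcode flank, with a log2 difference of 0.51 ± 0.08 (SE, edgeR adjusted p = 0.00058). Dach2, a nuclear cofactor that in mouse muscle responds to nerve activity, had 6.05, 7.62, 8 and 7.12 CPM in low-barcode flanks, against 2.51, 3.8, 3.19 and 0.289 CPM in high-barcode flanks and a log2 difference of 1.45 ± 0.26 (SE, edgeR adjusted p = 0.00406). Tnnt2 was not called by edgeR without muscle 1 or 3 (adjusted p = 0.172 and 0.604). Dach2 was not called without muscle 3 (adjusted p = 0.11).

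Fibre type genes did not pass the test. All 14 fast fibre genes could be tested, none was called by edgeR, and 13 of 14 differences were negative, where 48.5% of all genes had a positive difference, with a median of -0.18. Of the 14, 6 were saturated, meaning that nearly all molecular identifiers had been used in some section, which compresses differences. Casq1, the calcium store protein of fast fibres, had 1208 ± 287 CPM in low-barcode flanks and 1482 ± 387 CPM in high-barcode flanks (SD, n = 4 each) and a log2 difference of -0.29 ± 0.08 (adjusted p = 0.128). Of 6 myosin heavy chain genes 3 were tested: Myh2 of type 2A fibres had a log2 difference of 0.28 ± 0.08 (adjusted p = 0.147), Myh1 of type 2X fibres a log2 difference of 0.12 ± 0.07 (adjusted p = 0.632), and Myh4 of type 2B fibres, which was saturated, a log2 difference of -0.15 ± 0.08 (adjusted p = 0.545). Myh2 had 703, 549, 256 and 109 CPM in the low-barcode flanks of muscles 1 to 4, against 559.5, 444, 178 and 122 CPM in their high-barcode flanks, so muscle 4 went the other way. Of 12 slow fibre genes 6 were tested, none was called by edgeR, and the median was 0.20. Among 20 tested of 22 regulators of fibre type and mitochondria, Maf, a transcription factor, fell, with 202, 179.8, 129 and 138 CPM in low-barcode flanks, against 254, 206, 158 and 182 CPM in high-barcode flanks and a log2 difference of -0.30 ± 0.07 (SE, edgeR adjusted p = 0.038), lower in each muscle. Ppargc1a, the coactivator of mitochondrial biogenesis, had a log2 difference of 0.24 ± 0.11 (adjusted p = 0.449). Maf was not called by edgeR without muscle 1, 2, 3 or 4 (adjusted p = 0.201, 0.0879, 0.283 and 0.0637).

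Of the genes that handle fatty acids and creatine, a few passed the test and most did not. Of 23 genes of fatty acid uptake and oxidation, all tested, 2 rose, 21 had positive differences, against 48.5% of all genes, and the median was 0.20. Lpl, the lipase that frees fatty acids at the capillary wall, had 333, 415, 414 and 209.9 CPM in the low-barcode flanks of muscles 1 to 4, against 262, 306, 323 and 152 CPM in their high-barcode flanks. It was higher in each muscle by a like amount, and the difference was 0.40 ± 0.07 (SE, edgeR adjusted p = 0.00182). Fabp3, the fatty acid carrier of fibre cytoplasm, had 116, 112, 113 and 140.4 CPM in low-barcode flanks, against 90.2, 86.1, 90.2 and 99 CPM in high-barcode flanks, without overlap. For Fabp3 the log2 difference was 0.39 ± 0.07 (SE, edgeR adjusted p = 0.00622). Acadl, an acyl-CoA dehydrogenase of beta oxidation, was higher in each muscle but did not pass, with a log2 difference of 0.27 ± 0.07 (SE, edgeR adjusted p = 0.0895). Crat, the mitochondrial carnitine acetyltransferase, rose, with 72.2 ± 12.7 CPM in low-barcode flanks and 56 ± 8.42 CPM in high-barcode flanks (SD, n = 4 each) and a log2 difference of 0.37 ± 0.08 (SE, edgeR adjusted p = 0.0299). The 6 adipocyte markers, none high enough to test, together had 3.11 to 15 CPM in low-barcode flanks and 0.578 to 3.28 CPM in high-barcode flanks. Lep was at 0 in both, and the part of fat cells in these differences was not tested.

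Ckmt2, the creatine kinase of fibre mitochondria, had 427, 376, 369 and 440.0 CPM in the low-barcode flanks of muscles 1 to 4 and 344, 293, 294 and 350.0 CPM in their high-barcode flanks. The groups did not overlap, and the 4 muscles gave nearly the same difference, 0.33 ± 0.07 (SE, edgeR adjusted p = 0.00892) in the fit. Ldhb, the lactate dehydrogenase subunit of oxidative tissue, had 38.9, 36.5, 26.2 and 25.1 CPM in low-barcode flanks, against 30.3, 25.5, 17.4 and 17.9 CPM in high-barcode flanks, higher in each muscle. For Ldhb the log2 difference was 0.49 ± 0.10 (SE, edgeR adjusted p = 0.0184). Its fast fibre counterpart Ldha had a log2 difference of -0.13 ± 0.07 (adjusted p = 0.59) and the cytosolic creatine kinase Ckm, a saturated gene, a log2 difference of 0.03 ± 0.08 (adjusted p = 0.95). Nnt, which makes NADPH in mitochondria, had 24.2, 23.5, 13.6 and 0.419 CPM in low-barcode flanks, against 15.6, 17.7, 7.82 and 0.289 CPM in high-barcode flanks and rose, with a log2 difference of 0.61 ± 0.14 (SE, edgeR adjusted p = 0.0364). Muscle 4 was almost without it, with 1 transcript in each flank sum, so its sign there rests only on the totals. Nnt met the rule of 1 sign in every muscle on that basis. Ndufa8, a subunit of respiratory complex I, rose too, with 197 ± 57.8 CPM in low-barcode flanks and 148 ± 39.1 CPM in high-barcode flanks (SD, n = 4 each) and a log2 difference of 0.41 ± 0.08 (SE, edgeR adjusted p = 0.00735). Of 28 nuclear genes of oxidative phosphorylation 27 were tested, none was called by edgeR, and 24 had positive differences with a median of 0.13. Ndufa8 is not on that list. Nearest to a call was Ndufb5, with a log2 difference of 0.29 ± 0.07 (adjusted p = 0.0541). All 17 genes of the citric acid cycle and pyruvate entry were tested with a median of 0.09 and no call by edgeR. Fabp3 was not called by edgeR without muscle 3 (adjusted p = 0.084). Crat was not called without muscle 1, 2 or 3 (adjusted p = 0.201, 0.0727 and 0.301). Ckmt2 was not called without muscle 2 or 3 (adjusted p = 0.092 and 0.178). Ldhb was not called without muscle 1, 2 or 3 (adjusted p = 0.0565, 0.105 and 0.285). Nnt was not called without muscle 1, 2 or 3 (adjusted p = 0.192, 0.0764 and 0.41). Ndufa8 was not called without muscle 3 (adjusted p = 0.344).

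Car3, the abundant cytosolic carbonic anhydrase of muscle (chr3:14863512-14872523), went the other way. It had 1511, 1979, 728 and 716 CPM in the low-barcode flanks of muscles 1 to 4, against 1934, 2549, 1288 and 1378 CPM in their high-barcode flanks. Each muscle was lower in its low-barcode flank, with the wider gaps in muscles 3 and 4, and 1 of 32 low-barcode flank sections was above its muscle's high-barcode flank median. For Car3 the log2 difference was -0.62 ± 0.09 (SE, edgeR adjusted p = 0.000126). Of the 8 genes of oxygen handling Car3 was the one called. Mb, myoglobin, had 3320.1, 2829.6, 1482 and 1982 CPM in low-barcode flanks, against 2559, 2210.5, 1323 and 1789 CPM in high-barcode flanks, higher in each muscle, and did not pass, with a log2 difference of 0.26 ± 0.07 (SE, edgeR adjusted p = 0.117). Of 12 glycolysis genes 11 were tested, with a median of -0.05, and all 11 glycogen genes were tested, with a median of -0.07. None of them was called by edgeR. Pgm1, which links glycogen to glycolysis, was lower in each muscle and did not pass, with a log2 difference of -0.25 ± 0.07 (SE, edgeR adjusted p = 0.125). Of 13 mitochondrially encoded genes none was called by edgeR, with a median of 0.13, and 11 were saturated. The small mitochondrial ribosomal RNA mt-Rnr1, outside that list, was called at a log2 difference of 0.37 ± 0.09 (SE, edgeR adjusted p = 0.0412), also saturated. Leaving mitochondrial and saturated genes out of the totals and tests gave 54 calls, among them 50 of the 51. mt-Rnr1 was not called by edgeR without muscle 2, 3 or 4 (adjusted p = 0.159, 0.288 and 0.175).

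**Figure D3:**
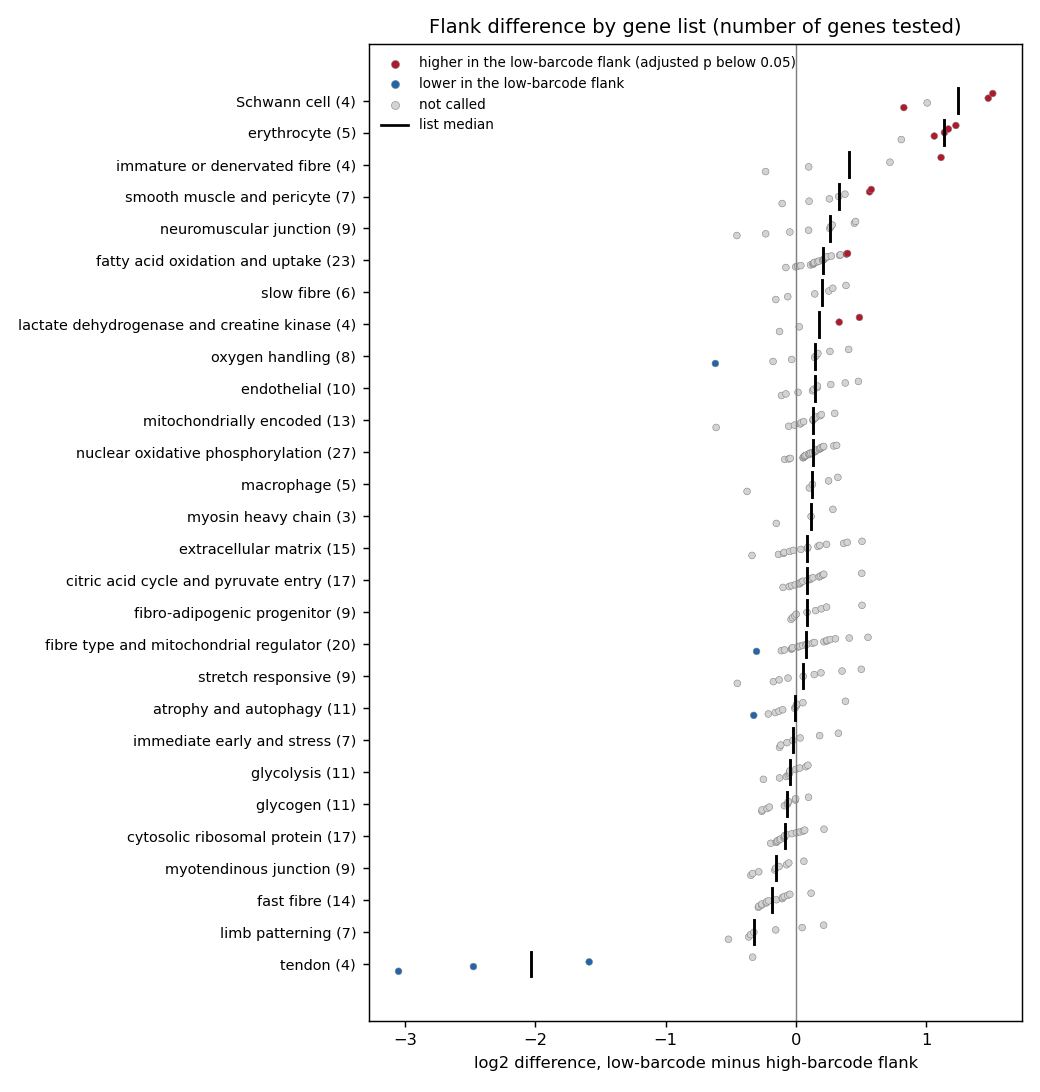
Log2 difference between the low-barcode and the high-barcode flank for each tested gene of the 28 lists with 3 or more tested genes; red and blue dots passed the test, grey dots did not, and black bars are list medians. The tendon list lies at the left with a median of -2.03, and the Schwann cell and erythrocyte lists at the right with 1.24 and 1.14.

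Other called genes that fell in the low-barcode flank, picked from the calls and not from a list, have varied roles. Trim63, the atrophy ubiquitin ligase MuRF1, had 132, 79.9, 88.8 and 104 CPM in the low-barcode flanks of muscles 1 to 4 and 161, 105, 109 and 131 CPM in their high-barcode flanks, lower in each muscle by nearly the same amount, with a log2 difference of -0.32 ± 0.07 (SE, edgeR adjusted p = 0.0299). It was the 1 gene called of 11 in the atrophy and autophagy list. The other muscle ubiquitin ligase of atrophy, Fbxo32, had a log2 difference of -0.21 ± 0.09 (adjusted p = 0.452). Psmd8, a proteasome subunit, fell, with a log2 difference of -0.43 ± 0.09 (edgeR adjusted p = 0.017). It was nearly level in muscle 2, at 27.5 CPM in the low-barcode flank and 27.7 CPM in the high-barcode flank. Psmb7, another subunit, fell, with a log2 difference of -0.30 ± 0.07 (edgeR adjusted p = 0.0463). Proteasome subunits were not tested as a list. Net1, an exchange factor for the GTPase RhoA, had 13.3, 10.2, 6.81 and 5.87 CPM in low-barcode flanks, against 17.7, 14.7, 16.2 and 19.3 CPM in high-barcode flanks, without overlap. For Net1 the log2 difference was -0.91 ± 0.17 (SE, edgeR adjusted p = 0.00507). Mss51, a mitochondrial protein of fast muscle, had 113, 106, 19.7 and 20.1 CPM in low-barcode flanks, against 176, 151, 21 and 64.7 CPM in high-barcode flanks, with its gap widest in muscle 4 and close to none in muscle 3, and a log2 difference of -0.64 ± 0.12 (SE, edgeR adjusted p = 0.0065). Cacng1, the gamma subunit of the muscle calcium channel, had 75.2 ± 22.5 CPM in low-barcode flanks and 99.4 ± 26.3 CPM in high-barcode flanks (SD, n = 4 each) and a log2 difference of -0.41 ± 0.08 (SE, edgeR adjusted p = 0.0121). Also lower were Tecr, of very long chain fatty acid synthesis (log2 difference -0.37 ± 0.08, adjusted p = 0.0212), Art3, of the ADP-ribosyltransferase family (log2 difference -0.38 ± 0.09, adjusted p = 0.0327), Ttll7, a tubulin polyglutamylase (log2 difference -0.42 ± 0.10, adjusted p = 0.0412), and Cdk19, a kinase of the Mediator complex (log2 difference -0.54 ± 0.10, adjusted p = 0.00622), all by edgeR. Trim63 was not called by edgeR without muscle 1, 2 or 3 (adjusted p = 0.14, 0.209 and 0.23). Psmd8 was not called without muscle 1 or 3 (adjusted p = 0.0913 and 0.409). Psmb7 was not called without muscle 1, 2 or 3 (adjusted p = 0.172, 0.0986 and 0.552). Net1 was not called without muscle 3 (adjusted p = 0.234). Mss51 was not called without muscle 1 (adjusted p = 0.109). Cacng1 was not called without muscle 2 or 3 (adjusted p = 0.208 and 0.206). Tecr was not called without muscle 2, 3 or 4 (adjusted p = 0.0764, 0.103 and 0.113). Art3 was not called without muscle 1, 2, 3 or 4 (adjusted p = 0.109, 0.264, 0.0677 and 0.0579). Ttll7 was not called without muscle 1, 2 or 3 (adjusted p = 0.111, 0.276 and 0.283). Cdk19 was not called without muscle 3 (adjusted p = 0.189).

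Besides the 24 genes chosen by rule, 27 were called, and those that follow or stand above were named after their values were seen. Mapkapk2, one of the 24 and a kinase downstream of p38, was higher, with 62.3, 54.2, 70.6 and 64.5 CPM in the low-barcode flanks of muscles 1 to 4 and 35.3, 41.3, 49.4 and 52 CPM in their high-barcode flanks. The groups did not overlap, and the difference was 0.52 ± 0.09 (SE, edgeR adjusted p = 0.00317). Sfrp5, a secreted antagonist of Wnt signalling, was at a low level, with 5.76, 5.31, 6.22 and 8.8 CPM in low-barcode flanks, against 1.16, 0.543, 2.17 and 3.18 CPM in high-barcode flanks, without overlap. For Sfrp5 the log2 difference was 1.85 ± 0.27 (SE, edgeR adjusted p = 0.000301). Tigd4, a gene derived from a transposable element, had 1.15, 1.15, 0.592 and 0.838 CPM in low-barcode flanks, against 4.63, 2.99, 6.66 and 7.22 CPM in high-barcode flanks, without overlap. For Tigd4 the log2 difference was -2.56 ± 0.34 (SE, edgeR adjusted p = 6.66e-05). Atp1b1, the beta subunit of the sodium pump, had 102 ± 12.6 CPM in low-barcode flanks and 79.4 ± 4.32 CPM in high-barcode flanks (SD, n = 4 each) and a log2 difference of 0.37 ± 0.08 (SE, edgeR adjusted p = 0.0327), and Grb14, an adaptor of the insulin receptor, a log2 difference of 0.76 ± 0.17 (adjusted p = 0.0278). Pla2g12a, a secreted phospholipase, had a log2 difference of 0.36 ± 0.08 (adjusted p = 0.017). Also called were Olfr1033 (log2 difference 1.21), Mir22hg (-0.90), Gm15543 (0.84), Gm11407 (0.44), Gm9700 (-0.71) and F830016B08Rik (-0.47), the last 4 being clone or predicted names. Of the 51 called genes 13 averaged under 10 CPM. Another annotated gene overlaps 20 of them on the opposite strand, among them Actc1, H19, Prg4, Chad, Ccl21a and Fabp3. Whether counting used the strand is not given in the sources used here, so reads of the partners cannot be told apart. Mapkapk2 was not called by edgeR without muscle 1 or 3 (adjusted p = 0.064 and 0.103). Atp1b1 was not called without muscle 2 or 3 (adjusted p = 0.329 and 0.442). Grb14 was not called without muscle 1 or 2 (adjusted p = 0.258 and 0.208). Pla2g12a was not called without muscle 1, 2 or 3 (adjusted p = 0.0812, 0.0664 and 0.274). Olfr1033 was not called without muscle 1 (adjusted p = 0.0682). Mir22hg was not called without muscle 1 or 3 (adjusted p = 0.064 and 0.521). Gm11407 was not called without muscle 3 (adjusted p = 0.206). Gm9700 was not called without muscle 3 or 4 (adjusted p = 0.536 and 0.178). F830016B08Rik was not called without muscle 2 or 3 (adjusted p = 0.0618 and 0.381).

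The other lists gave no call by edgeR. They were the stretch responsive genes (9 tested, median 0.06), immediate early and stress genes (7 of 14, -0.02), limb patterning genes (7 of 18, -0.32), cytosolic ribosomal proteins (17 of 18, -0.09) and macrophage markers (5 of 8, 0.13). Among the stretch responsive genes Mustn1, a small nuclear protein of muscle and bone, had a log2 difference of -0.45 ± 0.12 (adjusted p = 0.0807), and Ankrd2, a stretch-induced ankyrin repeat protein, a log2 difference of 0.50 ± 0.14 (adjusted p = 0.128). Myod1, the one satellite cell marker of 6 that could be tested and a master regulator of myogenesis, was lower in each muscle without passing, with a log2 difference of -0.42 ± 0.20 (adjusted p = 0.498). Hoxc10, a limb patterning gene kept on in hindlimb muscle, had a log2 difference of -0.16 ± 0.07 (adjusted p = 0.509).

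The same genes were then followed over 5 zones of equal position, of which zone 2 is the low-barcode flank and zone 4 the high-barcode flank. This adds sections that the flank comparison had not used. Between the end zones (zone 1, with the lowest barcodes, minus zone 5), 51 of the 51 genes had the sign of their flank difference, against 59.3% of all genes tested, and 35 of the 51 were called there, against 3.18% of all 9317 genes (edgeR, 20 sums with muscle as a block). The end zones come from the same muscles and the same barcode order as the flanks. The fit pools the residual spread of all 5 zones, the flanks among them. Its p-values therefore do not measure only how the end difference varies between muscles. Hbb-bs averaged 514, 504, 325, 236 and 165 CPM in zones 1 to 5. Its end difference was 1.68 ± 0.13 (SE, edgeR adjusted p = 1.77e-15). Actc1 averaged 365, 279, 157, 142 and 118 CPM, with an end difference of 1.74 ± 0.14 (SE, edgeR adjusted p = 1.45e-14). Prg4 averaged 9.64, 10, 13.8, 30 and 42.6 CPM and had an end difference of -2.12 ± 0.16 (SE, edgeR adjusted p = 1.79e-15). The mean of Hbb-bs was nearly level over zones 1 and 2, but single muscles were not. By the mean over sections (not TMM-scaled), Hbb-bs had 465 CPM in zone 1 and 685 CPM in zone 2 in muscle 1, and 646 CPM in zone 1 and 787 CPM in zone 2 in muscle 2. It had 211 CPM in zone 1 and 279 CPM in zone 2 in muscle 3, and 494 CPM in zone 1 and 319 CPM in zone 2 in muscle 4, so muscle 4 ran against the others. From zone 2 on, each muscle was lower in each next zone. The mean of Actc1 over the muscles was lower, and that of Prg4 higher, in each zone than in the one before. Single muscles departed from this, as between zones 1 and 2 by the mean over sections. Actc1 was higher in zone 2 in muscle 2 (216 to 225 CPM) and muscle 3 (159 to 184 CPM), and lower in muscles 1 and 4. Prg4 was lower in zone 2 in muscle 1 (12 to 10.6 CPM) and muscle 3 (6.64 to 5.28 CPM), and higher in muscles 2 and 4.

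Other genes had their high or low point inside the belly. Mbp averaged 2.31, 6.93, 3.63, 2.54 and 1.31 CPM in zones 1 to 5, so that the low-barcode flank held the highest value, with an end difference of 0.74 ± 0.41 (SE, edgeR adjusted p = 0.456). Acta2 averaged 101, 111, 84.5, 74.6 and 67.3 CPM, also highest in the low-barcode flank, and Ccl21a 6.41, 11, 5.96, 2.09 and 0.415 CPM. Car3 averaged 1466, 1233, 1325, 1793 and 2031 CPM and Net1 14.5, 9.03, 10.2, 17.1 and 26 CPM. Chad averaged 2.02, 0.745, 2.69, 7.98 and 13.3 CPM. For each of these genes the mean over the muscles was lowest in the low-barcode flank. By the mean over sections, Car3 in muscle 2 was lowest in the middle zone (2082 CPM, against 2223 CPM in zone 2), and in muscles 1, 3 and 4 in the low-barcode flank. Mapkapk2 averaged 61.6, 63.1, 58.5, 44.7 and 58.8 CPM, with its lowest value in the high-barcode flank, and an end difference of 0.07 ± 0.09 (SE, edgeR adjusted p = 0.834). The test of whether the end difference was larger or smaller than the flank difference called 0 of 9317 genes (0.0%) and 0 of the 51 by edgeR, with 606 of 9317 at an unadjusted p below 0.05. A miss in that test does not show that the differences were equal. Over the 1411 genes at 30 CPM or more the flank and end differences had a Pearson r of 0.699, a description across genes that share libraries, with an SD of 0.157 for the flank and 0.215 for the end differences. Between muscles, r of the flank differences over these genes ran from 0.0989 for muscles 1 and 4 to 0.40 for muscles 3 and 4.

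**Figure D4:**
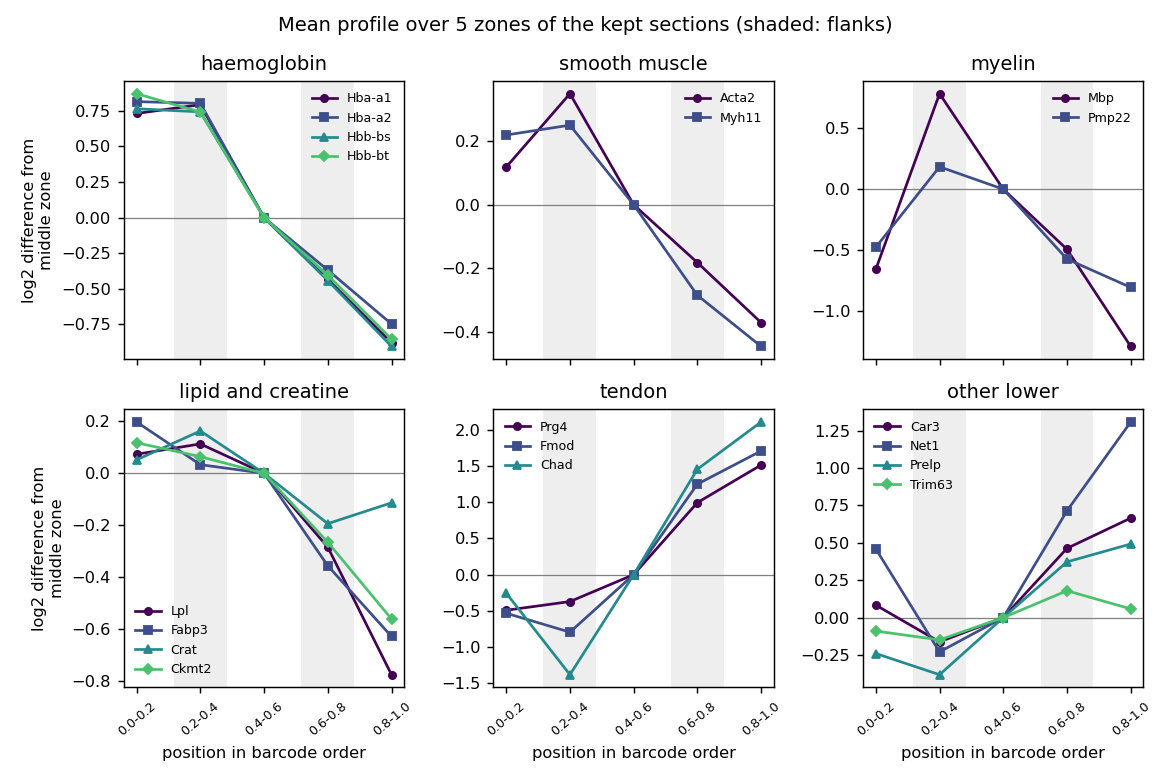
Mean over 4 muscles of the log2 level in each of 5 zones along the kept sections minus that in the middle zone, with positions in barcode order and the flanks shaded. Haemoglobin genes step down from the low-barcode flank to the middle, myelin genes peak in the low-barcode flank, and Fmod and Chad are lowest there.

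**Figure D5:**
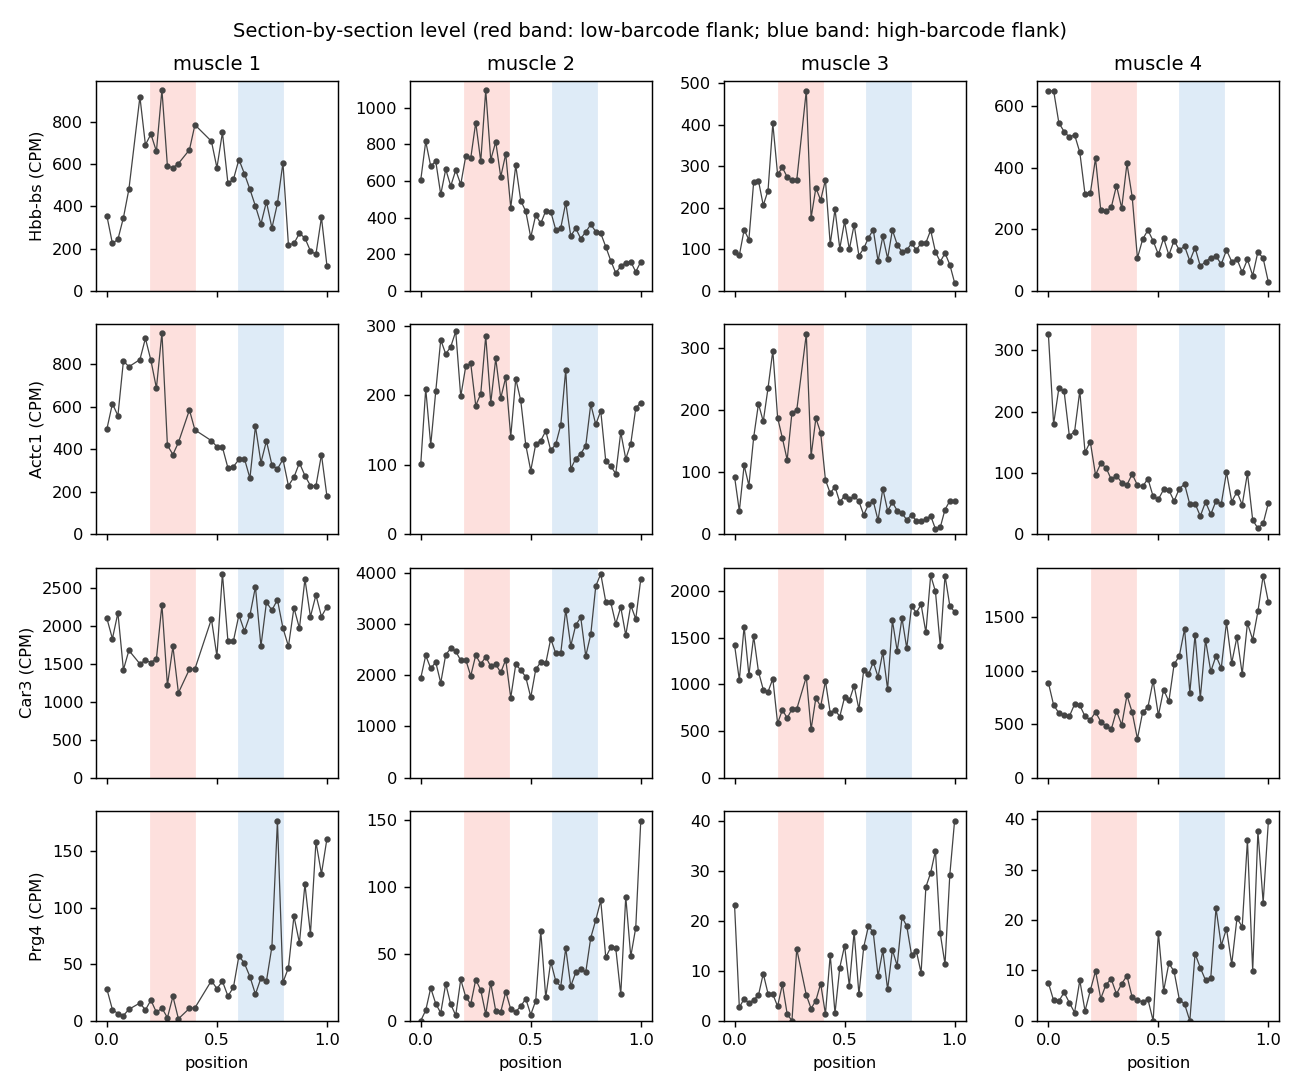
Level in CPM (per section, not TMM-scaled) of Hbb-bs, Actc1, Car3 and Prg4 in each of the 171 kept sections against position, with the low-barcode flank in red and the high-barcode flank in blue. Hbb-bs in muscle 4 lies at 259.5 to 430.4 CPM in the red band and at 80.3 to 145 CPM in the blue band.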

How the data were processed

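The unit of measurement was the cryosection: the deposited tables hold, for each muscle, 1 value per gene and section barcode. The submitters' processing notes name the aligner STAR 2.7.7a and the build GRCm38; neither an annotation nor a strand setting is named there. The deposited counts are estimated counts of transcripts: the authors corrected the number of distinct molecular identifiers for collisions, and every value maps back to a whole number out of 4096 identifiers within 0.001, so a value cannot exceed 62356. The 22 genes with at least 90% of the identifiers used in a kept section were called saturated. The authors' second table, a signal scaled by 1 factor per section, served only to find the sections they kept. No table columns of other samples were present.

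Estimated counts were summed per muscle and flank and rounded to whole numbers, giving 8 sums. Genes passing filterByExpr (7963) were tested in edgeR 4.0.16 (R 4.3.3) with TMM scaling, the quasi-likelihood F-test and Benjamini-Hochberg adjustment at 0.05. Muscle was a block because both flanks of a muscle come from the same animal; same-numbered sums are therefore pairs. Standard errors are the log2 difference divided by the root of F. Per-muscle differences used a prior count of 2. Entries naming several genes (0.58 to 0.93% of the counts) were left out of the sums and their totals, and were not tested. Of 28989 single-gene entries 28895 matched GENCODE M21, 584 after a point in the name was read as a hyphen; gene coordinates are from that annotation. On simulated sums for the flank difference (200 changed genes, 7736 genes tested on average) the test recovered 88% of changes of 1 and 36.9% of changes of 0.5 on the log2 scale. The simulation gave every gene the same relative spread between sums, without the differences in spread between real genes. These shares therefore need not hold for the data. The end zones were tested in 1 fit of 20 sums.

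Named genes were the 12 largest positive and the 12 largest negative called differences of 1 sign in every muscle and averaging 10 CPM or more, leaving out clone and pseudogene names; 20 and 14 genes were eligible. The values of 1 other called gene are not reported here. The flanks and the gene lists were chosen with earlier results of these data known. Alternatives were DESeq2 1.42.0 and its size factors, limma 3.58.1 on section means of log2(CPM + 1), no filter, thinning, other flank limits, no block, and each muscle left out.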

Additional observations from a re-analysis of the deposited data

Results flagged for a closer look

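Each called gene's 4 per-muscle differences were checked for a muscle far from the others, by the gap to the nearest muscle divided by the whole range (Dixon's test at 95%). Of 51 genes 4 passed, and chance alone flags about 1 in 20 groups. Dach2 had a log2 difference of 3.37 in muscle 4 and 0.92 to 1.22 in the others. The value of muscle 4 rests on 17 transcripts in the low-barcode flank and 1 in the high-barcode flank. Vegfb had 0.748 in muscle 1 and 0.42 to 0.45 in the others. Gm15543 had 0.525 in muscle 3 and 0.90 to 0.96 in the others, and Grb14 had 0.261 in muscle 3 and 0.85 to 0.95 in the others.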

How the results depend on the processing

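No called gene changed its direction under any alternative run. The count of 51 calls was 51 with DESeq2 size factors, 71 with all 20 sums in 1 fit, 41 after thinning, 39 with equal section weights in limma (17 higher, 22 lower), 54 without mitochondrial and saturated genes, 42 in muscles 1 and 2 alone and 79 in muscles 3 and 4 alone. It was 18 with DESeq2, 78 without a filter (36 higher, 42 lower), 85 with wider flanks and 18 with narrower ones. Leaving out 1 muscle gave 24 to 82 calls. The flanks are paired by muscle: without the replicate block 0 genes were called by edgeR and 104 of 7963 had an unadjusted p below 0.05. DESeq2 gave no adjusted p for 14139 of 25148 genes, none of them among the 7963 tested by edgeR. Of the 51 genes, 50 were called with all 20 sums, 48 with wider flanks, 18 with narrower flanks, 46 without muscle 4, 23 without muscle 3, and 18 with DESeq2. The test of the end against the flank difference called 0 genes; it called 5 without a filter, 0 to 1 with 1 muscle left out, and 0 with DESeq2 size factors or without the replicate block. The causes were not tested. Genes of a few CPM rest on few transcripts per section, and saturated genes on a compressed scale.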

Other observations

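Several called genes differed far more between muscles than between flanks, and the log2 difference between flanks kept 1 sign. Nnt stood at 0.419 CPM in the low-barcode flank and 0.289 CPM in the high-barcode flank of muscle 4, against 7.82 to 24.2 CPM in the flanks of the other muscles. These values of muscle 4 are 1 transcript each, so the sign of Nnt there is uninformative. Hba-a2 stood at 23 and 27.7 CPM in the low-barcode flanks of muscles 3 and 4, where Hba-a1 had 1156 and 2389 CPM, and at 1169 and 1182 CPM in those of muscles 1 and 2. Cdk19 had 48.6 to 91.4 CPM in the flanks of muscles 3 and 4 and 11.2 to 15.2 CPM in those of muscles 1 and 2. Psmd8 had 79.5 to 174 CPM in muscles 3 and 4 and 27.5 to 38.6 CPM in muscles 1 and 2. H19 went the other way, with 264 to 401 CPM in muscles 3 and 4 and 1181 to 2464 CPM in muscles 1 and 2. For Hba-a2, Cdk19, Psmd8 and H19 the barcode set and the identity of the muscles cannot be told apart here. Nnt differed within a barcode set, with 13.6 and 7.82 CPM in the low-barcode and high-barcode flanks of muscle 3, against 0.419 and 0.289 CPM in muscle 4.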
